A study of Mus musculus with 28 samples.

Results

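The 9 libraries with the highest and the 9 with the lowest Isg15 level were compared, out of 28 RNA-seq libraries of mouse ventromedial prefrontal cortex (vmPFC). They were chosen by the measurement itself: all 28 libraries were ranked by Isg15 CPM (its count scaled to the total count of the library), and the 10 between the extremes were kept apart as a middle set. Each library came from 1 female mouse that carried a LacZ control virus or one whose label gives a Slit1 knockdown, and that was either left unstressed or exposed to 3 days of the stress that the labels call sCVS. The 4 groups of 7 mice (stressed and unstressed mice with LacZ, stressed and unstressed mice with the Slit1 knockdown) all received a virus, so no library came from tissue without one. Strain, age and the knockdown construct were not given in the sources used here. The log2 difference of Slit1 between knockdown and LacZ libraries was -0.02 (edgeR quasi-likelihood test, Benjamini-Hochberg adjusted p = 1.0), so counts of the targeted gene were not lower under the knockdown label. Because the labels did not choose the libraries, a call below says that a gene went with Isg15 across these mice, and not that a treatment changed it.

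Isg15 is a small ubiquitin-like protein and one of the most strongly induced targets of type I interferon. Interferons bind receptors that signal through JAK kinases to STAT proteins. In answer to type I interferon these join IRF9 in a complex that binds a DNA element called the interferon-stimulated response element (ISRE) and raises the transcription of antiviral genes. Irf7 is itself such a target and encodes a factor that amplifies interferon production. Interferon gamma, made by T and natural killer cells, raises guanylate-binding proteins and antigen presentation. In brain, neurons, glia and infiltrating leukocytes can all answer to interferon, and in bulk tissue fewer cells of a type and less RNA per cell cannot be told apart.

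The ISRE was searched as GAAA, any 2 bases and GAAA again on both strands of the 250 bases before each RefSeq start site (build GRCm38.p6). It was found in 936 of 27025 genes (3.46%), against 19 of the 51 interferon-stimulated effectors in the table (37.3%) and all 7 interferon-induced GTPases in the table. In 4 other lists it was found in 2 of 11 genes of signal transduction (18.2%), 1 of 17 of MHC class I (5.88%), 0 of 12 nucleic acid sensors and 0 of 3 genes of ISG15 conjugation. The stretches below are shown because they belong to the ranking gene (Isg15), a gene of signal transduction (Stat2), an effector (Ifit1) and GTPases (Gbp2, Gbp3 and Gbp7) described afterwards. Capitals mark the matches, on either strand (TTTC, any 2 bases and TTTC in reverse), with overlapping matches joined.
Isg15, chr4:156200850-156200909, minus strand: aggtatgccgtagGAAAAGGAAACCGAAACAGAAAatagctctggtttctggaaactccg
Stat2, chr10:128270251-128270310, plus strand: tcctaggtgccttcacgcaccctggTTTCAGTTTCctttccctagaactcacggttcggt
Ifit1, chr19:34640779-34640838, plus strand: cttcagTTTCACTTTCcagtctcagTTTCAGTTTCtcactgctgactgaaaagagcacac
Gbp2, chr3:142620579-142620638, plus strand: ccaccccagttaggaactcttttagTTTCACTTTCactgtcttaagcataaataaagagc
Gbp3, chr3:142559980-142560039, plus strand: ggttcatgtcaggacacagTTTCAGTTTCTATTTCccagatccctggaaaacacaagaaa
Gbp7, chr3:142530258-142530317, plus strand: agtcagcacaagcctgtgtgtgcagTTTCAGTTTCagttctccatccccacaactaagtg
The stretch of 60 bases shown for Isg15 held 3 overlapping matches. A match is a run of letters and was not tested as a binding site.

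Isg15 itself chose the libraries, so its values are a description. Isg15 CPM ran from 12.08 to 58.12 (median 25.7) in the 9 high libraries, from 4.825 to 11.19 in the middle 10 and from 1.457 to 3.665 (median 2.578) in the 9 low libraries. At the upper border the last high library, Slit1 knockdown stressed replicate 4, had 12.08 and the next library had 11.19. At the lower border the last middle library had 4.825 and the first low one, LacZ unstressed replicate 2, had 3.665. The levels form a continuous series with small steps at both borders. The highest library, LacZ stressed replicate 2, rested on 2315 Isg15 fragments and the lowest on 58.

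Irf7, the second marker of the interferon state, did not enter the ranking. Its normalised CPM (scaled by TMM, the trimmed mean of M values) was 30.0, 54.3 and 90.5 (lowest, median, highest) in the high libraries and 6.03, 11.9 and 24 in the low libraries. The groups did not overlap. The log2 difference was 2.20 ± 0.27 (SE, n = 9 against 9; edgeR adjusted p = 0.000612). A ranking by Irf7 would have put 8 of the same 9 libraries on the high side and 7 of the same 9 on the low side.

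**Figure D1:**
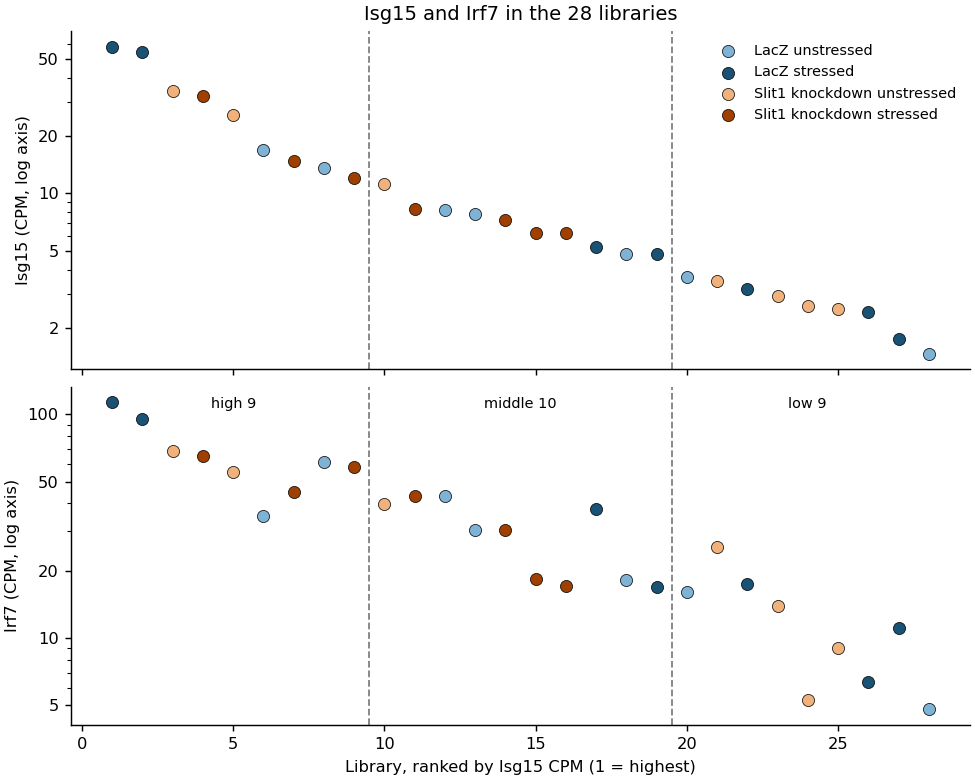
Isg15 (top) and Irf7 (bottom) CPM on log axes for the 28 libraries, ordered by Isg15 rank and coloured by study group; dashed lines mark the borders of the high 9, middle 10 and low 9. Irf7 falls along the Isg15 order, and every study group is spread over the ranking, except that no Slit1 knockdown stressed library is in the low 9.

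The study's labels were spread over both sides. The high side held 3 stressed and 2 unstressed Slit1 knockdown libraries, and 2 stressed and 2 unstressed LacZ libraries. The low side held 0 stressed and 4 unstressed knockdown libraries, and 3 stressed and 2 unstressed LacZ libraries. Knockdown libraries made up 5 of the high and 4 of the low (Fisher's exact test, two-sided, p = 1.0), and stressed libraries 5 and 3 (p = 0.637). At 9 libraries a side these tests could show only a strong imbalance.

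The 2 sides differed in measures of the library. Mitochondrial genes took 3.78% ± 1.24 (SD, n = 9) of the counts in the high libraries and 7.79% ± 3.24 in the low (exact permutation test, two-sided, p = 0.00111, adjusted over 4 measures p = 0.00384). The high libraries had more genes detected, 25500 against 24050 on average (exact permutation p = 0.00288, adjusted p = 0.00384). Total counts did not separate, with means of 40.2 M and 38.7 M fragments (exact permutation p = 0.407) and a range of 30.65 M to 44.28 M over all libraries.

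The first principal component of log2 CPM took 58.8% of the variance over the 28 libraries and averaged -71.8 on the high side and 33.6 on the low side (exact permutation p = 0.00243, adjusted p = 0.00384). Across the 28 libraries log2 Isg15 went with this component at Pearson's r = -0.694 and Spearman's rho = -0.684 (permutation p = 6e-05 and 0.00011). Without the 2 libraries farthest from the median of log2 Isg15, r was -0.636. Within the middle 10 libraries r was -0.638, but -0.247 without the 2 of them farthest in log2 Isg15, so there it rests on those libraries. With the mitochondrial share r was -0.68 over all 28, but -0.409 (rho = -0.2) in the middle 10 and 0.0547 there without the 2 farthest. The relations over all 28 are 2 of 10 computed, both with an adjusted p of 0.00035. The number that each mouse has in the titles went with log2 Isg15 at r = -0.294 over all 28 (permutation p = 0.127). In the middle 10 this r was 0.536 (permutation p = 0.111). Whether the mouse number goes with the first component was not tested. On the component 4 low Isg15 libraries lay inside the range of the high side (-127.5 to 13.01): LacZ unstressed replicate 2 at -77.14, LacZ stressed replicate 4 at -47.62, Slit1 knockdown unstressed replicate 3 at -0.68 and Slit1 knockdown unstressed replicate 4 at 1.75.

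**Figure D2:**
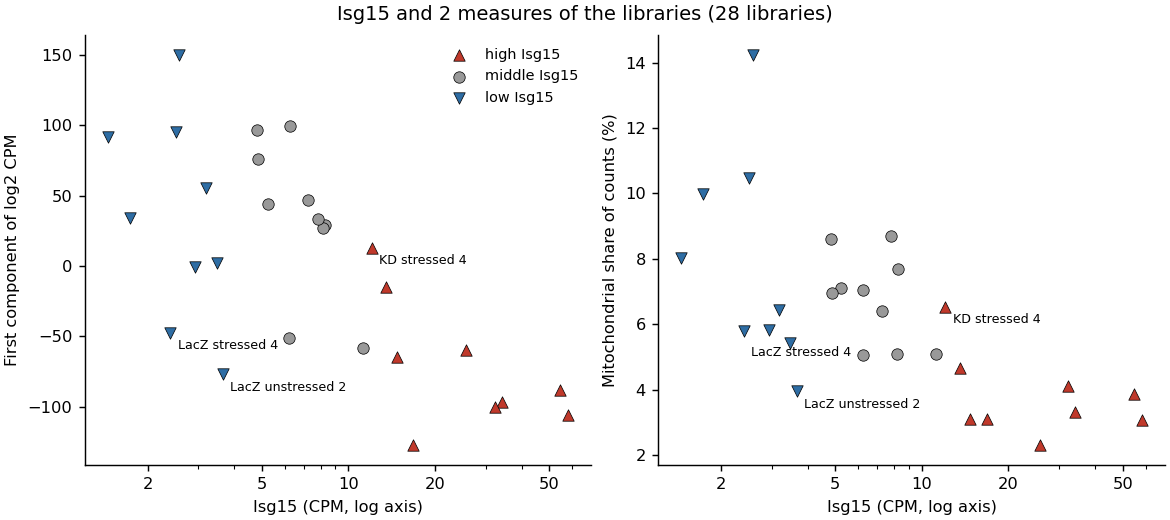
First principal component of log2 CPM (left) and mitochondrial share of counts in percent (right) against Isg15 CPM (log axis), 1 point a library, with the 9 high, 10 middle and 9 low libraries marked. High libraries lie at low values of both measures, except Slit1 knockdown stressed replicate 4 (13.01 and 6.53%, above the medians of all 28), and the named low libraries LacZ unstressed replicate 2 and LacZ stressed replicate 4 lie among them on the component.

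The difference between the sides reached far beyond interferon genes. With no covariate, 5392 of 18310 genes were higher on the high side (29.4%) and 4310 lower (23.5%) at an adjusted p under 0.05 in edgeR's quasi-likelihood test. The log2 difference followed the GC content of a gene's longest transcript, at r = 0.698 across 18263 genes, which are not independent replicates. With the first component as a covariate this r was -0.0297 and the calls fell to 247 higher (1.35%) and 51 lower (0.279%). With the mitochondrial share as the covariate 0 genes were called in either direction (edgeR; 2320 at an unadjusted p under 0.05), and the median of the interferon-stimulated effectors was 1.35. What the first component stands for was not tested; it is computed over all genes, interferon genes included.

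T cell content was handled with a second covariate, the mean log2 CPM of 24 T cell genes. This score was 3.08 ± 0.618 (SD, n = 9) on the high side and 1.95 ± 1.67 on the low side, where it ran from -0.90 in LacZ stressed replicate 4 to 3.70. Its addition alone left 4494 genes higher (24.5%) and 3339 lower (18.2%), and 45 and 1 once the mitochondrial share was added too. These counts depended on single libraries: without LacZ stressed replicate 5 they were 443 and 243, and without LacZ stressed replicate 7 they were 1536 and 1640. The count of higher genes was 2179 without LacZ unstressed replicate 1, 2812 without Slit1 knockdown unstressed replicate 1 and 2490 without LacZ stressed replicate 1.

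With both the T cell score and the first component, 469 genes were higher (2.56%) and 48 lower (0.262%). Of these 469, 232 were also higher with the first component alone, and 107 belonged to the interferon lists described below, which had 162 tested genes. This model leaned on LacZ unstressed replicate 2, the low Isg15 library with the lowest value on the component. Without it no gene was called (1979 genes had an unadjusted p under 0.05), the adjusted p of Stat2, Irf7 and Ifit1 was 0.0554, and their log2 differences were 1.52, 1.81 and 2.31. With the 7 highest against the 7 lowest libraries no gene was called either (edgeR; 3496 at an unadjusted p under 0.05), and the effector median was 1.91. Without any one of 5 others the higher calls fell to between 177 and 246 (LacZ unstressed replicate 4, Slit1 knockdown stressed replicate 4, Slit1 knockdown unstressed replicate 3, LacZ stressed replicate 7 and Slit1 knockdown unstressed replicate 2), and without LacZ unstressed replicate 1 or Slit1 knockdown unstressed replicate 4 they were 724 and 722. A fit of the slope on log2 Isg15 over all 28 libraries, with the same covariates, called 1397 genes higher (7.21%) and 642 lower (3.31%) of 19369, and 1152 and 298 without LacZ unstressed replicate 2. In what follows, "the full model" means the comparison of 9 with 9 with the T cell score and the first component. Counts of called genes in a list stand against the shares over all genes. Those were 29.4% higher and 23.5% lower with no covariate, and 24.5% and 18.2% with the T cell score. In the full model they were 2.56% and 0.262%.

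**Figure D3:**
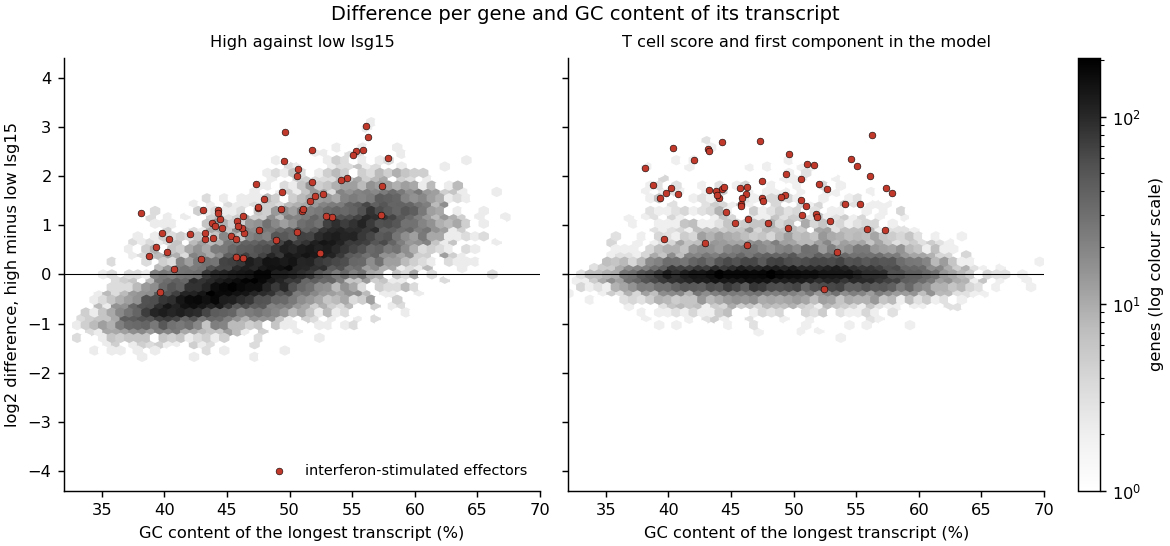
Log2 difference, high minus low Isg15, against GC content of the longest transcript in percent, for all genes (grey) and the interferon-stimulated effectors (red), with no covariate and in the full model. The slope across all genes (r = 0.698) is gone in the full model (r = 0.0076), where 61 of the 62 effectors lie above 0.

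Interferons and their receptors were the first step examined. Of 16 listed genes 7 could be tested; 4 were higher with no covariate, 3 with the T cell score and 1 in the full model, Ifng, which encodes interferon gamma. Its normalised CPM was 0.794, 3.64 and 5.91 on the high side and 0.0453, 1.14 and 2.85 on the low side, with overlap (log2 difference 2.28 ± 0.51, edgeR adjusted p = 0.0232 in the full model; 1.55, adjusted p = 0.0223, with no covariate). The receptor subunits Ifnar1, Ifnar2, Ifngr1 and Ifngr2, named after their values were seen, had log2 differences of 0.00, 0.44, 0.28 and 0.09 in the full model and none was called there. Transcripts of the type I ligands were almost uncounted: Ifnb1 had 41 fragments over all 28 libraries, and Ifna1, Ifna2, Ifna4 and Ifna5 had 1, 10, 6 and 2.

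Of the nucleic acid sensors that start interferon production, 9 of 18 tested genes were higher in the full model and 10 with no covariate (medians 0.93 and 1.02; all genes 0.01 and 0.13). Zbp1, a sensor of Z-form nucleic acid, was 15.8, 46.8 and 72.6 normalised CPM on the high side and 2.13, 10.8 and 24.6 on the low side. In the full model Zbp1 was higher by 2.17 ± 0.35 on the log2 scale (edgeR adjusted p = 0.00808). Dhx58, which encodes the RNA helicase LGP2, was 5.6 to 20.6 against 0.717 to 4.25 (median 1.63), with no overlap (1.91 ± 0.37, adjusted p = 0.0103). Ifih1, the long-RNA sensor MDA5, overlapped between sides (38, 183 and 315 against 28.7, 106 and 224). Its difference was 0.80 with no covariate (adjusted p = 0.083) and 1.99 ± 0.33 in the full model (adjusted p = 0.00808). Ddx58 (RIG-I), Tlr3 and Tlr9 were also called, while Mavs and Tbk1, the adaptor and kinase below the sensors, were at 0.27 and 0.26 with no call.

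Among the genes of signal transduction, 7 of 12 were higher in the full model (2.56% of all genes) and 9 with no covariate (29.4% of all genes). Stat2 was 57.0, 98.8 and 137 normalised CPM on the high side and 21.7, 32 and 59 on the low side, with 8 of 9 high libraries above every low one. Its difference was 1.63 ± 0.19 with no covariate and 1.56 ± 0.25 in the full model (edgeR adjusted p = 0.000612 and 0.00808). Irf7 was 1.94 ± 0.24 with the T cell score (adjusted p = 0.00124) and 1.85 ± 0.30 in the full model (adjusted p = 0.00808). Stat3, Irf1, Irf9 and Irf5 were also called, by 0.74 to 1.72. Jak1, Jak2 and Tyk2, the kinases bound to the receptors, were not called in the full model (0.22, 0.45 and 0.23).

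The interferon-stimulated effectors, the antiviral proteins that the pathway makes, were the largest list. In the full model 55 of 62 tested genes were higher, none lower, with a median log2 difference of 1.64 against 0.01 over all genes. With no covariate 41 were higher (median 1.20) and with the T cell score alone 30 (median 0.96). The median stayed between 1.51 and 1.80 when each of the 18 libraries was left out of the full model, and was 1.58 without LacZ unstressed replicate 2, although none of the 62 was then called.

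The effectors split by base composition when no covariate was used. Of the 31 genes with a transcript GC content of 47.5% or more, 29 were higher (median 1.67), and of the 31 below it 12 were (median 0.84). In the full model the counts were 27 and 28 and the medians 1.58 and 1.66. Helz2, a GC-rich helicase gene (56.1%), was 15.6, 26.1 and 51.1 normalised CPM against 0.738, 3.28 and 7.54 with no overlap, and was higher both ways (3.03 ± 0.41 and 1.99 ± 0.35, edgeR adjusted p = 0.000612 and 0.00808). Ifit1, which encodes a protein that binds foreign RNA ends and is GC-poor (43.3%), was 41.1, 205 and 390 against 22.9, 106 and 340. Here 1 high library lay above every low one, and the difference went from 0.83 ± 0.45 (adjusted p = 0.119) to 2.52 ± 0.39 (adjusted p = 0.00808).

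Other antiviral genes of the list differed in how the models changed them. Ifi44 (GC content 40.4%) was at 0.71 with no covariate (edgeR adjusted p = 0.226) and at 2.57 ± 0.37 in the full model (adjusted p = 0.00808). Oasl2, a relative of the oligoadenylate synthetases (49.4%), was 63.6, 210.0 and 262 normalised CPM against 25.1, 59.5 and 105, and was higher in both (1.67 and 2.05 ± 0.31, adjusted p = 0.00136 and 0.00808). Apol9a (49.6%) was 1.38, 3.14 and 5.29 against 0.113, 0.4 and 0.98 with no overlap (2.89 and 2.44 ± 0.44, adjusted p = 0.000612 and 0.00847). It could not have passed the filter on low counts from the low libraries alone, so its gap between the sides is a description. Apol9a and Apol9b, Oas1a and Oas1g, and Ifit3 and Ifit3b are close copies that could share reads. Members not called in the full model were Ifi27 (-0.29), Ifit1bl1, Epsti1, Slfn2, Ifitm1, Sp100 and Sp110 (0.59 to 1.20).

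**Figure D4:**
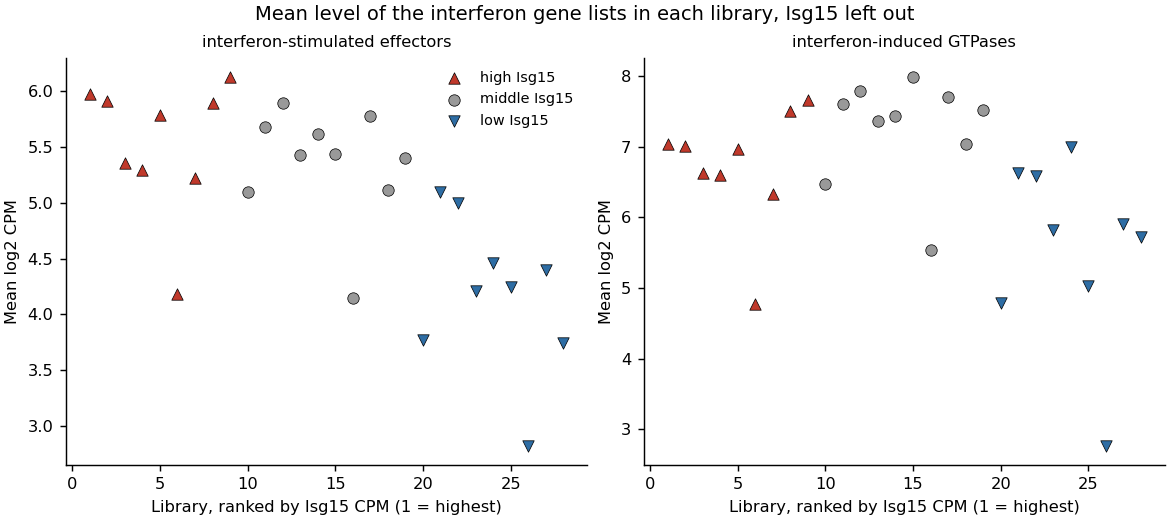
Mean log2 CPM of the interferon-stimulated effectors and of the interferon-induced GTPases in each library, in Isg15 rank order. Colours mark the high, middle and low Isg15 libraries, and study group is not shown. LacZ unstressed replicate 1 (rank 6) stands below the other high libraries at 4.18 and 4.77, several middle libraries lie as high as the high ones, and LacZ stressed replicate 4 is the lowest of all at 2.82 and 2.76.

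The level of these lists did not simply follow Isg15. The summed effector level was 1591, 5537 and 8799 normalised CPM in the high libraries, 1790, 6730 and 7773 in the middle and 838.9, 2684 and 4945 in the low. The middle libraries were thus not below the high ones in this sum, and they had a first component of 34.3 on average against -71.8. In the high libraries LacZ unstressed replicate 1 was lowest, and it had the lowest component of all 28 (-127.5).

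The genes that attach ISG15 to proteins or remove it make up a list of 4, and all 4 were higher in the full model. Uba7, the activating enzyme, was 14, 29 and 51 normalised CPM on the high side and 0.58, 3.35 and 9.38 on the low side with no overlap (1.49 ± 0.27, edgeR adjusted p = 0.00816; 2.83 with no covariate). Ube2l6, the conjugating enzyme, was 15.4, 35.6 and 54.1 against 7.82, 13.4 and 25.3 (1.69 ± 0.28, adjusted p = 0.00808). Herc6, a ligase, overlapped between sides (medians of 109 and 98.6) and was at 0.18 with no covariate and 1.57 ± 0.27 in the full model (adjusted p = 0.703 and 0.00808). Usp18 removes ISG15 and also blocks the type I receptor; it was higher by 2.16 ± 0.42 (adjusted p = 0.0103).

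Among the feedback inhibitors 3 of 6 were higher in the full model, Usp18, Socs1 and Socs3. Socs1, which blocks JAK kinases, was 0.941, 2.81 and 5.51 normalised CPM against 0.113, 0.82 and 2.03 (2.37 ± 0.50, edgeR adjusted p = 0.0179). Ptpn2 and Pias1, further brakes on STAT signalling, were at 0.21 and 0.06 with no call.

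The interferon-induced GTPases, which attack the vacuoles of intracellular microbes and answer strongly to interferon gamma, were higher in all 11 tested genes in the full model (median 1.98). With no covariate 5 were higher (median 0.97) and with the T cell score alone 2 (median 0.64). Gbp2 was 107, 523 and 882 normalised CPM on the high side and 17.8, 201 and 393 on the low side (2.17 ± 0.39, edgeR adjusted p = 0.00833; 1.47, adjusted p = 0.0157, with no covariate). Gbp7 overlapped between sides, at 67.7, 285 and 491 against 25.4, 164 and 615, and went from 0.52 (adjusted p = 0.327) to 1.98 ± 0.35 (adjusted p = 0.00808). Gbp3 was at 1.79 ± 0.32 and Gbp11 at 2.69 ± 0.48 in the full model (adjusted p = 0.00808 and 0.00833). The other 8 listed GTPases lie inside another annotated gene and were counted at or near 0, so they could not be tested.

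Antigen presentation genes of MHC class I were mostly called higher in both kinds of model. With no covariate 16 of 19 tested genes were higher and 1 lower (median 1.46). In the full model 12 were higher and 0 lower (median 1.03). Tapbp, tapasin, which loads peptides, was 56.3, 79.3 and 116 normalised CPM on the high side and 13.6, 27 and 47.3 on the low side with no overlap (1.20 ± 0.19, edgeR adjusted p = 0.00808; 1.74 with no covariate). Tap1, the peptide transporter, was 46.0, 70.6 and 108 against 3.33, 16.7 and 34.1, also without overlap (1.57 ± 0.29, adjusted p = 0.00887). The classical molecules H2-K1 and H2-D1 were higher with no covariate (1.38 and 1.41) and not called in the full model (0.80 and 0.74, adjusted p = 0.0699 and 0.119). With the first component alone 2 of the 19 were called. Of the MHC class II list, 11 of 12 genes were higher with no covariate and 2 in the full model, the costimulatory Cd86 (1.22 ± 0.26, adjusted p = 0.0192) and the class II regulator Ciita (1.30 ± 0.29, adjusted p = 0.025). Cd74, H2-Aa, H2-Ab1 and H2-Eb1 were at 0.53 to 0.56 there, with no call.

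**Figure D5:**
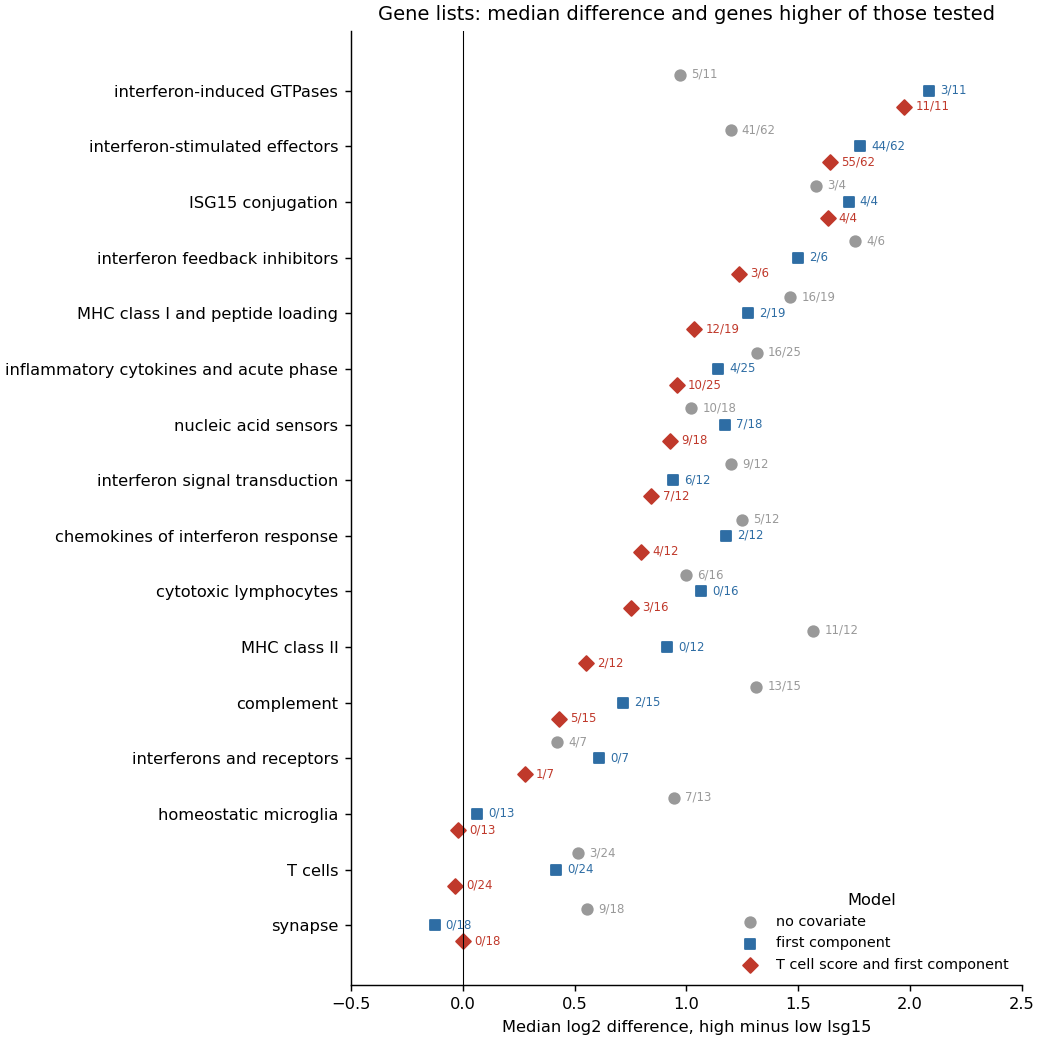
Median log2 difference, high minus low Isg15, of each gene list with no covariate, with the first component, and with the T cell score and first component; labels give the genes higher of those tested. GTPases and effectors have the largest medians in the full model (1.98 and 1.64), and the homeostatic microglia list lies near 0 there. The T cell list also lies near 0 there, because the score built from its genes is in that model. With the first component alone its median is 0.42.

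Chemokines were called higher in 4 of 12 tested genes in the full model, in 2 with the first component alone and in 5 with no covariate. Over all genes the shares called higher were 2.56%, 1.35% and 29.4%. Ccl7, which draws monocytes, was 1.34, 13.4 and 30.9 normalised CPM against 0.926, 3.56 and 13.3 (2.74 ± 0.55, edgeR adjusted p = 0.0139). Cxcl9, an interferon gamma target that draws T cells, was 22.2, 69.2 and 145 against 1.04, 35.3 and 70.3 (1.70 ± 0.38, adjusted p = 0.0232). Its receptor Cxcr3 was at -0.83 with no call. Cxcl10, Cxcl11 and Ccl2 lie inside other annotated genes and were listed at 0, which does not show that they were absent.

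Of the inflammatory cytokines and acute phase genes, 10 of 25 were higher in the full model, and 16 were higher and 1 lower with no covariate. Il1rn, the antagonist of the interleukin-1 receptor, was 2.78, 17.7 and 54.0 normalised CPM on the high side and 0.068, 3.13 and 14.4 on the low side, and had a full-model difference of 3.22 ± 0.55 (edgeR adjusted p = 0.00808). Il1b, the cytokine it blocks, was 1.92, 8.07 and 25.7 against 0.476, 1.83 and 5.62 (2.46 ± 0.48, adjusted p = 0.0105). Tnf was 2.68, 6.1 and 11.8 against 0.171, 1.55 and 3.27 (1.53 ± 0.32, adjusted p = 0.0166). In complement, 5 of 15 genes were higher in the full model and 13 with no covariate. The protease gene C1ra (1.59 ± 0.32, adjusted p = 0.0123) and the central component C3 (1.66 ± 0.39, adjusted p = 0.0292) were among the 5, and C1qa, C1qb and C1qc, made by microglia, were not (0.24, 0.31 and 0.50).

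Markers of the cells that could carry these genes were set beside the lists. The summed T cell level was 172.6, 300.5 and 542.7 normalised CPM in the high libraries and 29.7, 213.8 and 576.0 in the low, with overlap, and with no covariate 3 of 24 genes were higher and 1 lower. The defining markers Cd3d, Cd3e and Cd8a had log2 differences of 0.58, 0.23 and 0.28 with no covariate. In the full model 0 of 24 were called, as the score built from these genes was in it. Over all 28 libraries log2 Isg15 went with the T cell score at r = 0.45 and rho = 0.423 (permutation p = 0.0159, adjusted over 10 relations p = 0.0398), and at r = 0.463 without the 2 farthest libraries.

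Of 16 genes of cytotoxic lymphocytes, 6 were higher with no covariate, 6 higher and 1 lower with the T cell score, and 3 higher in the full model. Over all genes 29.4%, 24.5% and 2.56% were higher in these fits, so the first 2 counts lie not far from the share of all genes. Gzmb, which encodes the protease granzyme B, was 24.1, 62.5 and 116 normalised CPM on the high side and 0.408, 18.1 and 59.1 on the low side (1.86 ± 0.37, edgeR adjusted p = 0.013). Il2rb, a subunit of the interleukin-2 receptor, did not overlap (16.1, 20.5 and 47.6 against 0.58, 4.6 and 11; 1.06 ± 0.26, adjusted p = 0.0372). Ncr1, a receptor of natural killer cells, was at 1.75 ± 0.44 (adjusted p = 0.0401), and Prf1, Gzma and Nkg7 were not called. The summed cytotoxic level was 128.2, 223.1 and 454.2 against 11.69, 133.6 and 341.4. The part of these cells in the other results was not tested beyond adding a joint T cell and cytotoxic score, which left 231 genes higher and 13 lower in the full model.

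Homeostatic microglia genes were called higher in 7 of 13 with no covariate (median 0.94) and in 0 of 13 in the full model (median -0.02). Their summed level was 317.2, 529.6 and 668.1 normalised CPM on the high side and 220.6, 373.2 and 496.8 on the low side. Cx3cr1, a receptor of microglia, was 35.6, 63.3 and 81.2 against 35.1, 65.7 and 75.4. Of 21 activated microglia genes 12 were higher and 2 lower with no covariate (median 0.84), and 3 higher in the full model (median 0.41). Of 16 genes of monocytes and border macrophages 7 were higher and 2 lower with no covariate (median 0.93), and 2 higher in the full model (median 0.41). Over all genes 29.4% were higher and 23.5% lower with no covariate, and 2.56% higher in the full model.

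B and plasma cell genes were higher in 5 of 7 with no covariate (median 2.02) and in 1 in the full model (median 0.96), with a summed level of 16.03, 29.56 and 92.56 normalised CPM against 3.372, 13.22 and 49.31. Endothelial genes were higher in 11 of 14 and lower in 2 with no covariate (median 1.09), and higher in 0 and lower in 1 in the full model (median 0.29). Their summed level did not go with these calls, at 327.7, 395.4 and 490.3 normalised CPM on the high side against 252.2, 417.9 and 479.2. The part of these cells in the interferon results was not tested. Slc17a7, the vesicular glutamate transporter of cortical neurons, was counted in every library of both sides. It was 53.1 to 451 normalised CPM on the high side and 13.2 to 239 on the low side. The summed excitatory neuron list went the other way, with medians of 2717 in the high and 3308 in the low libraries. With no covariate 6 of its 14 genes had a difference above 0 (median -0.21). In the full model no gene of the excitatory neuron (14), interneuron (13), synapse (18) or oligodendrocyte (13) lists was called, against 2.56% of all genes higher. Of 14 astrocyte genes 1 was higher and 1 lower. With no covariate, where 29.4% of all genes were higher, 9 of the 18 synapse genes were higher and 4 lower. Their summed level went the other way, at 5202, 6090 and 7099 normalised CPM on the high side against 6670, 8259 and 14380 on the low side.

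Genes outside the lists were also among the strongest. Rnf213, a very large ubiquitin ligase, was 193, 482 and 718 normalised CPM on the high side and 41.7, 99.5 and 211 on the low side (2.08 ± 0.34, edgeR adjusted p = 0.00808). Apol6 was 0.523, 2.56 and 7.25 against 0.0, 0.102 and 0.362 (4.10 ± 0.70, edgeR adjusted p = 0.00808). It passed the filter on low counts through the high libraries, so its gap between the sides is a description only. A fold of so low a gene also depends on the prior count. Levels of Socs1, Il1rn, Ifng and Tnf, like those of Apol9a, ran close to 0 on the low side. The low libraries alone could not have passed these genes through the filter, so their gaps are read the same way. Znfx1, a helicase-like sensor, was 82.6, 131 and 190.0 against 19.1, 32 and 62 with no overlap (1.18 ± 0.20, adjusted p = 0.00808). Pml, the organiser of nuclear bodies, was 21.2, 37.5 and 67.3 against 7.23, 12.3 and 21.9 (1.57 ± 0.27, adjusted p = 0.00808).

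The 48 genes lower in the full model were smaller differences, and of them 34 were also lower with the T cell score alone. Bche, butyrylcholinesterase, was 4.25, 6.09 and 10.3 normalised CPM on the high side and 13, 21.1 and 37.2 on the low side with no overlap (-1.04 ± 0.23, edgeR adjusted p = 0.0232). Fgf9, a growth factor of neurons, was 10.7, 11.9 and 14.7 against 15.9, 20.4 and 30.1 with no overlap (-0.37 ± 0.09, adjusted p = 0.03). Slco1a4, a transporter of brain endothelium, was 44.9, 69.6 and 89.9 against 89.7, 190.0 and 293, and was at -1.34 with the T cell score and -0.77 ± 0.18 in the full model (adjusted p = 0.0323). Clcn2, a chloride channel, had the smallest p of the 48 in the full model (-0.54 ± 0.10, adjusted p = 0.00816). Its levels were not lower on the high side (5.15, 21.7 and 44.5 against 1.42, 6.97 and 29.1), and its difference was 1.02 (adjusted p = 0.0807) with no covariate and 1.11 with the T cell score, so the sign turned with the first component. Cftr was at -1.21 ± 0.26 (adjusted p = 0.0179), but above 0 in 2 other divisions of the libraries.

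The 10 middle libraries, which neither side used, gave a comparison over a narrower range of Isg15. The slope on log2 Isg15 called 0 of 18634 genes (0.0%) in edgeR, with 5178 at an unadjusted p under 0.05; DESeq2 called 790 higher and 1375 lower. Without Slit1 knockdown stressed replicate 2 edgeR called 3645 higher and 2596 lower, and without LacZ stressed replicate 3 it called 465 and 302. The median slope of the effectors was -0.08 and of the GTPases -0.32, against 1.80 for the striatal neuron list, 1.58 for T cells, 1.42 for B and plasma cells, 1.26 for complement and 1.23 for MHC class II, per unit of log2 Isg15. Striatal neuron genes mark tissue next to the cortex, and their mean log2 CPM was 4.10 in Slit1 knockdown unstressed replicate 6, 4.06 in LacZ unstressed replicate 6 and 4.87 in Slit1 knockdown stressed replicate 7, against 2.07 to 2.35 in the other middle libraries. Slit1 knockdown stressed replicate 2 had the highest list means of meninges and fibroblasts (5.0) and of neutrophils (2.24) of all 28. The part of these libraries' makeup in the slopes was not tested. Irf7 had a slope of 0.60 there (unadjusted p = 0.0938). The effector direction of the 9 against 9 comparison was thus not seen in the middle set without a covariate.

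Knockdown against LacZ, averaged over stress, called 0 of 19171 genes (0.0%) with 291 at an unadjusted p under 0.05, and stress against no stress, averaged over virus, called 0 (0.0%) with 424; DESeq2 also called 0 in each. The median log2 difference of the 62 effectors was -0.01 for the knockdown label and 0.32 for stress, and none of the 62 was called. With stress 59 of the 62 effectors, 18 of 18 sensors, 11 of 11 GTPases and 19 of 19 MHC class I genes had a difference above 0, where 46.3% of all genes did, and none of them was called. This was not particular to interferon genes. Also above 0 were 24 of 24 T cell genes (median 0.42), 17 of 17 of monocytes and border macrophages (0.49) and 20 of 20 of the cell cycle (0.43). Of excitatory neuron and oligodendrocyte genes 1 of 14 and 1 of 13 were above 0. No T cell score was in this fit, and the knockdown label also had 24 of 24 T cell genes above 0 (median 0.40). By group, Isg15 CPM had medians of 7.82 in LacZ unstressed, 4.83 in LacZ stressed, 3.48 in Slit1 knockdown unstressed and 8.27 in Slit1 knockdown stressed mice, with ranges that overlap.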

How the data were processed

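Total RNA of vmPFC from 28 mice was made into stranded, ribosome-depleted libraries, per the labels' protocols, 7 libraries to a lane; the lane of each library is not in the labels. The deposited values are raw counts of fragments per gene. Per the file headers, the authors counted with featureCounts over whole gene spans, introns included, on GRCm38, without a strand option and after duplicate removal; HISAT2 and DESeq2 are among the tools in the submitters' processing notes. Fragments shared by overlapping genes were not assigned: of 12185 genes lying inside another gene, 99.9% were at 0 in every library.

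Libraries were ranked by Isg15 CPM, and the 9 highest and 9 lowest were compared with edgeR 4.0.16 (R 4.3.3; TMM, filterByExpr, robust quasi-likelihood test, Benjamini-Hochberg over all genes tested, threshold 0.05), leaving Isg15 out. Covariates were the T cell score (mean log2 CPM, prior count 2) and the first principal component of log2 CPM over 28 libraries. The component was first listed as an alternative, and its use beside the T cell score throughout the text was chosen after seeing the data, as was the slope over 28 libraries with both covariates. Members and gene lists were chosen with earlier results of these data known. Named genes were Irf7, the 12 genes with the smallest p in each direction, and up to 4 passing members of each list with the smallest p, leaving out predicted genes; others named were chosen after their values were seen. The same rule was then used for the fits with the component. DESeq2 1.42.0, other scalings, filters, rankings and covariates were tried as alternatives. Total counts were 30.65 M to 44.28 M fragments a library. Each replicate is a separate mouse, per the labels. The fits were tested on simulated data. Promoters were taken from RefSeq (GRCm38.p6). Some genes of the lists are not reported here by name.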

Additional observations from a re-analysis of the deposited data

Results flagged for a closer look

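In the 51 sets of 9 or 10 libraries examined for a single library far from the others, 5 were found. A chance rate of about 1 in 20 holds for independent sets. These sets share libraries and related genes, so 5 is not shown to exceed it. Among the high Isg15 libraries, LacZ unstressed replicate 1 was the lowest in the mean log2 CPM of the interferon-stimulated effectors (4.184, next library 5.216), of the nucleic acid sensors (3.699, next 4.385) and of the interferon-induced GTPases (4.772, next 6.328). Its Isg15 CPM was 16.81. Among the middle libraries, Slit1 knockdown stressed replicate 2 was the lowest in the mean log2 CPM of the effectors (4.145, next 5.099). Among the high libraries, Slit1 knockdown stressed replicate 4 had the lowest total count (32.03 M fragments, next 39.05 M).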

How the results depend on the processing

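No paired analysis was possible because the titles give each mouse its own number and replicate numbers only follow the accession order. With no covariate, 2558 genes were higher when libraries were ranked by Irf7, 247 higher and 51 lower with the first component, and 0 and 0 with the mitochondrial share. With the T cell score the counts were 1039 higher and 1265 lower for 14 against 14 libraries, 255 and 39 ranked by Irf7, 469 and 48 with the first component, 45 and 1 with the mitochondrial share, and 5507 lower for the slope over 28 libraries. With the first component the counts were 685 and 263 in DESeq2, 117 higher with no filter on low counts, 0 and 1 for 7 against 7, 929 and 578 for 14 against 14, 2004 and 1879 ranked by Irf7, 18 and 0 with virus and stress labels, and 1443 and 1202 for the slope over 28 libraries. With the T cell score and the first component they were 791 and 142 in DESeq2, 287 higher with no filter, 0 and 0 for 7 against 7, 1174 and 420 ranked by Irf7, 225 and 12 with virus and stress labels, 1397 and 642 for the slope over 28 libraries, 1152 and 298 for that slope without LacZ unstressed replicate 2, 1560 and 900 without LacZ stressed replicate 4, and 231 and 13 with a joint T cell and cytotoxic score. In the middle libraries DESeq2 called 790 and 1375, and 1 gene was higher with no filter. Leaving out each library in turn gave 3613 to 6072 higher and 3927 to 5175 lower with no covariate, 443 to 5896 and 243 to 4766 with the T cell score, 0 to 1014 and 0 to 443 with the first component, 0 to 724 and 0 to 120 with both, and 0 to 3645 and 0 to 2596 in the middle libraries. With both covariates, the 7 against 7 comparison kept a median effector difference of 1.91 with 0 called, and the cause of the loss was not tested. Cftr turned above 0 for 14 against 14 libraries (0.51 with the T cell score, 0.89 with the first component, 0.78 with both) and ranked by Irf7 (0.07 with the first component, 0.13 with both). Of the single-gene values under the alternatives, 4221 kept direction and side of the threshold, 615 lost the call and those 5 of Cftr reversed. A p that missed the threshold does not show equal levels.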
